A study of Homo sapiens with 16 samples.

Results

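Autophagy carries cytoplasmic material to the lysosome inside a double membrane, the autophagosome. Proteins of the ATG8 family are coupled to a lipid of the growing membrane, and selective autophagy receptors bind both a cargo and ATG8, so that the cargo is enclosed. The kinase ULK1 starts the process under the control of AMPK and mTORC1, and WIPI proteins bind the lipid PI3P that marks the site of assembly. The receptors are themselves degraded along with their cargo, and several of the genes, SQSTM1 among them, are known to respond to cell stress.

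The genes described here are 10 of the 26182 genes with a transcript level above 0 in at least 1 library. They were taken by name: the receptors SQSTM1 (p62), NBR1, OPTN and TAX1BP1, the ATG8 proteins MAP1LC3B, GABARAP, GABARAPL1 and GABARAPL2, the PI3P effector WIPI1, and the kinase ULK1. The choice was made with earlier results of these data known. All 10 were among the 15285 genes that passed the filter on low values, and each had 1 entry per library.

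The cells were A549, a human lung cancer line, in every group made to overexpress CD63 fused to the luciferase Nluc, which tags exosomes. They received 5G6, 6D7, 7F8 or the solvent DMSO for 4 h or 48 h, with 2 biological replicates for each of the 8 combinations. The labels give a concentration of 4 µM for every treatment, DMSO included, and no structure for the compounds, which are known by code name. The title of the series places the work in the control of exosome release by AMPK and SREBPs. Whether the line is 1 clone is not stated, nor whether the replicates were separate cultures, so the p-values measure the spread between these libraries.

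Levels are given in TPM, a relative unit scaled by gene length, so that genes can be set against each other. The libraries held 6.10 to 8.86 aligned gigabases, and 13013 to 14568 genes reached 1 TPM. Of 7 markers of an epithelial lung line, 6 reached 1 TPM in all 16 libraries, and EPCAM had 0.254 to 8.33 TPM. Of 11 markers of other cell types, 8 (among them PTPRC, CD3E, PECAM1, VWF and ALB) stayed below 1 TPM in all 16, and CD14, COL1A1 and ACTA2 had 1.49 to 14.4 TPM. Both 6D7 libraries of 48 h stood apart: the mitochondrial transfer RNA gene TRNC was listed at 0 in them and took 15.3% to 28.6% of all TPM in the other 14. TPM has a fixed sum, so values of a library depend on each other. On TPM the median of all tested genes against DMSO at 48 h was -0.07 on the log2 scale with 5G6, 0.29 with 6D7 and -0.21 with 7F8. Without TRNC and the like gene TRNY it was -0.06, -0.06 and -0.17 with 5G6, 6D7 and 7F8. At 4 h it was 0.13 with 5G6, 0.04 with 6D7 and -0.10 with 7F8. After scaling each library by the median of ratios, these medians at 48 h were 0.01, 0.01 and 0.00 with 5G6, 6D7 and 7F8, and values on that scale are given beside the TPM values. In such bulk RNA, fewer cells and less RNA per cell cannot be told apart.

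Promoters are shown first for SQSTM1, OPTN and WIPI1, called at 48 h with each compound, and for MAP1LC3B, chosen for its match to a searched motif. These 4 are also the genes called with more than 1 compound at 48 h both on TPM and after median-of-ratios scaling. The runs hold the 250 bases before an annotated transcription start and, as the last letter in capitals, the start itself, 5′ to 3′ on the strand of the gene, from RefSeq for GRCh38.p14. SQSTM1 is shown at chr5:179820655-179820905 on the plus strand, OPTN at chr10:13099913-13100163 on the plus strand, MAP1LC3B at chr16:87392086-87392336 on the plus strand, and WIPI1 at chr17:68457496-68457746 on the minus strand. Where several starts are annotated, as for SQSTM1 and OPTN, the most downstream was taken. Further capitals mark a match to the core of the antioxidant response element.
SQSTM1: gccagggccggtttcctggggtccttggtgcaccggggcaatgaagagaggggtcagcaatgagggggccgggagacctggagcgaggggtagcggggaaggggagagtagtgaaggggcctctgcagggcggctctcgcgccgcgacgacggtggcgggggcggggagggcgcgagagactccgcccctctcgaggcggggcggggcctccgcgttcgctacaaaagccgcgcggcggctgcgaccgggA
OPTN: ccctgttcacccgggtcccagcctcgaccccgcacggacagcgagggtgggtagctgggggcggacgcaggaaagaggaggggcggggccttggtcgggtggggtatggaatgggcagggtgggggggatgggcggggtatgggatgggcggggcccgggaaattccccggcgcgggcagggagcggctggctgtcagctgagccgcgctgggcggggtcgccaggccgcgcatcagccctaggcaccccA
MAP1LC3B: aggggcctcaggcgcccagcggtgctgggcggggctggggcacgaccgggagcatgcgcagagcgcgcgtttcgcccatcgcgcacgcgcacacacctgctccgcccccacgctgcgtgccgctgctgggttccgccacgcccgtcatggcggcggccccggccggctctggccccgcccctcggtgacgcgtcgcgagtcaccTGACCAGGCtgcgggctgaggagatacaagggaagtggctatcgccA
WIPI1: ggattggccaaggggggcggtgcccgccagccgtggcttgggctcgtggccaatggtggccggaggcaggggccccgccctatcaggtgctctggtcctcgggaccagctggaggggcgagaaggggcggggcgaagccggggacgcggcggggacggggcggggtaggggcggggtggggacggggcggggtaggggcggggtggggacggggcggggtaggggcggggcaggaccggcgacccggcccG

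The 4 runs are rich in G and C, and that of WIPI1 repeats runs of G broken by 1 or 2 other bases. Over all 15 annotated windows of the 10 genes, each with 250 bases before and 50 after a start, the median GC content was 69%, against 58.67% over 35116 human windows. The range was 33%, in a window of TAX1BP1, to 79.67%, in that of WIPI1. The antioxidant response element core TGACNNNGC, bound by NRF2, was found on either strand in 1 of the 15 windows, that of MAP1LC3B, and in 13.35% of all windows. The E-box core CACGTG, bound by TFEB and its relatives, was in 0 of 15 against 7.256% of all windows, and the ATF4 composite site TGATGNAA in 0 of 15 against 3.617%. With 1 match in the 15 windows, no matches of different motifs overlapped there.

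At 48 h, transcripts of a part of these genes were higher with each compound, and none was called lower. SQSTM1, OPTN and WIPI1 rose with all 3 compounds, MAP1LC3B with 5G6 and 6D7, GABARAP and GABARAPL1 with 6D7 and 7F8, and GABARAPL2 and ULK1 with 6D7, while NBR1 and TAX1BP1 were not called with any. The 3 comparisons share the same DMSO libraries, so they are not independent of each other. In limma on log2(TPM + 1) with Benjamini-Hochberg adjustment over all tested genes and a threshold of 0.05, 4 of 10 genes rose with 5G6, where 1.87% of all tested genes were called higher. With 6D7, 8 of 10 rose, where 10.9% of all tested genes were called higher. With 7F8, 5 of 10 rose, where 2.08% of all tested genes did. After median-of-ratios scaling 4, 5 and 5 of 10 were called with 5G6, 6D7 and 7F8, against 2.47%, 3.09% and 3.69% of all tested genes, and all of these had also been called on TPM. The genes whose call with 6D7 was lost by that scaling were GABARAP, GABARAPL1 and GABARAPL2.

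**Figure D1:**
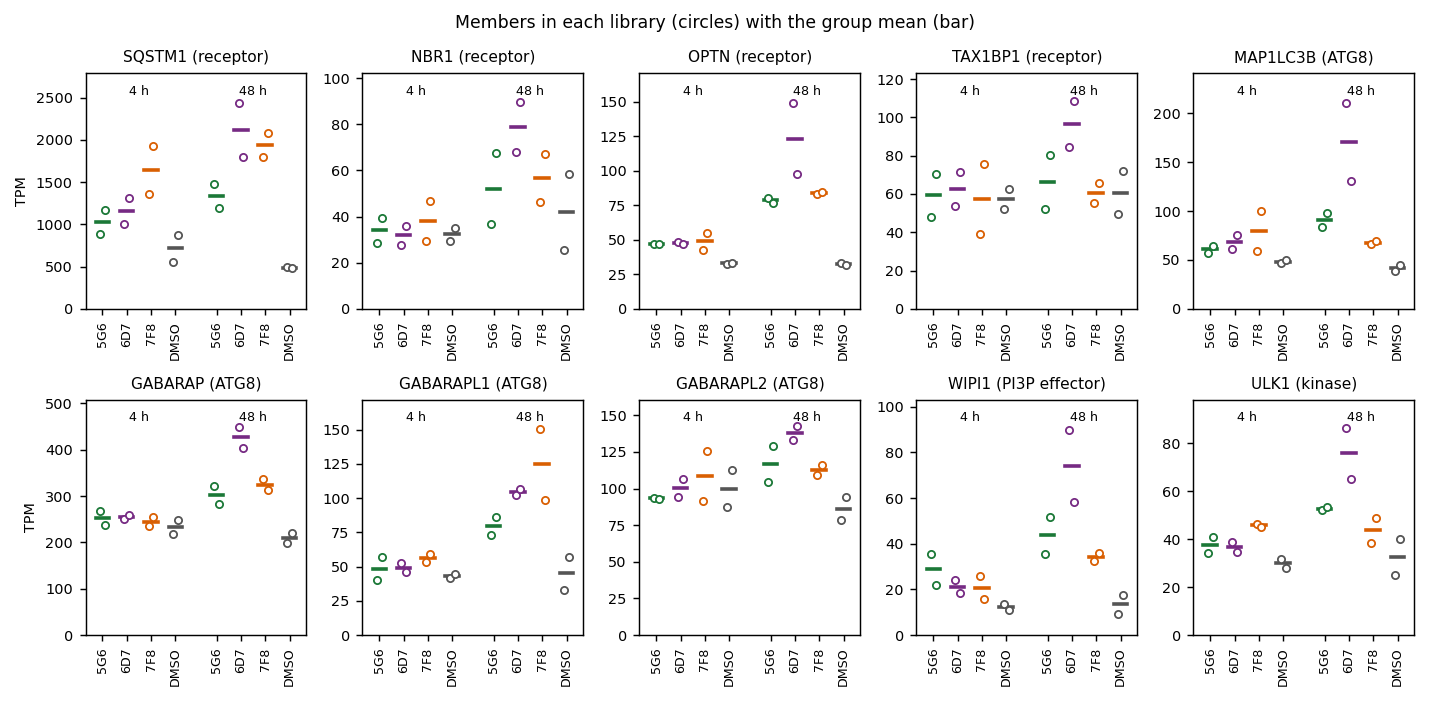
Level of each of the 10 genes in each library in TPM (vertical axes, each from 0), at 4 h on the left and 48 h on the right of each panel; circles are libraries and bars are means of 2. For SQSTM1, the 6 compound libraries of 48 h lie between 1191 and 2438 TPM, above both DMSO libraries at 490 and 482 TPM.

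SQSTM1 encodes p62, the receptor of ubiquitinated cargo, which also holds KEAP1, the inhibitor of NRF2. It lies at chr5:179806388-179838078 on the plus strand (GRCh38) and was the most abundant of the 10 genes, at place 89 among all genes by its median level. At 48 h it had 1475 and 1191 TPM with 5G6, 2438 and 1801 TPM with 6D7, and 1803 and 2084 TPM with 7F8, against 490 and 482 TPM with DMSO. No compound library overlapped with DMSO, and the DMSO libraries differed little from each other. The means were 1333 ± 201, 2120 ± 450 and 1943 ± 199 TPM with 5G6, 6D7 and 7F8 and 486 ± 5.73 TPM with DMSO (SD, n = 2 each). The fold changes were 2.72 with 5G6, 4.31 with 6D7 and 3.98 with 7F8. On the log2 scale SQSTM1 changed by 1.45 ± 0.27 (SE) with 5G6 (limma, Benjamini-Hochberg adjusted p = 0.0185). The change was 2.11 ± 0.27 with 6D7 (limma, adjusted p = 0.00154) and 1.99 ± 0.27 with 7F8 (limma, adjusted p = 0.00367). After median-of-ratios scaling the log2 changes were 1.54, 1.77 and 2.25 with 5G6, 6D7 and 7F8. The largest rise was therefore with 6D7 on TPM and with 7F8 after that scaling. Without 1 of the 4 libraries the call was kept each time with 6D7. With 7F8 it was lost without DMSO replicate 1 (limma, adjusted p = 0.0526), and with 5G6 it was lost without any 1 library (limma, adjusted p of 0.0744 to 0.160).

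OPTN encodes optineurin, a receptor of damaged mitochondria and of intracellular bacteria that is phosphorylated by the kinase TBK1. It lies at chr10:13100082-13138308 on the plus strand. At 48 h its level was 80.4 and 76.9 TPM with 5G6, 149 and 97.3 TPM with 6D7, and 83.3 and 84.8 TPM with 7F8, against 33.4 and 31.5 TPM with DMSO. Every compound library was above both of DMSO by more than the replicates of 5G6, 7F8 or DMSO differed, and 6D7 replicate 1 stood above all others. The log2 change was 1.25 ± 0.20 (SE) with 5G6 (limma, adjusted p = 0.0102), 1.86 ± 0.20 with 6D7 (limma, adjusted p = 0.000742) and 1.35 ± 0.20 with 7F8 (limma, adjusted p = 0.00536). After median-of-ratios scaling it was 1.34 with 5G6 and 1.53 with 6D7, and higher than both with 7F8. Leaving out single libraries kept every call with 6D7. With 7F8 the call was lost without DMSO replicate 1 or 7F8 replicate 1, and with 5G6 without any 1 of the 4 (limma, highest adjusted p of 0.0665 and 0.117).

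NBR1 is a receptor of ubiquitinated cargo and of peroxisomes, and TAX1BP1 a receptor of protein aggregates and bacteria. Neither was called with any compound in the main fit, which takes no account of replicate numbers. NBR1 (chr17:43170310-43211689, plus strand) had 36.6 and 67.4 TPM with 5G6, 68.1 and 89.7 TPM with 6D7, and 46.3 and 67.3 TPM with 7F8, against 25.5 and 58.6 TPM with DMSO at 48 h. The DMSO libraries were far apart, and those of 5G6 and 7F8 overlapped with them. With 6D7 the log2 change of NBR1 was 0.99, with a 95% interval of 0.12 to 1.87 (limma, adjusted p = 0.122). TAX1BP1 (chr7:27739373-27829767, plus strand) had 52.3 and 80.5 TPM with 5G6, 84.8 and 108 TPM with 6D7, and 55.1 and 65.9 TPM with 7F8, against 49.3 and 72.1 TPM with DMSO. Its log2 change had 95% intervals of -0.61 to 0.85 with 5G6, -0.05 to 1.40 with 6D7 and -0.71 to 0.74 with 7F8, so that a doubling was not within the intervals for 5G6 and 7F8. In both genes replicate 2 was above replicate 1 in 8 of 8 groups. With the replicate number as a block in the fit, both were called higher with 6D7 (limma, adjusted p = 0.00671 for NBR1 and 0.0152 for TAX1BP1). With median-of-ratios scaling as well, NBR1 was called with 6D7 and 7F8 (limma, adjusted p = 0.0323 and 0.0152) and TAX1BP1 with no compound.

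Among the ATG8 genes, MAP1LC3B encodes LC3B, the protein most used as a marker of autophagosomes. It lies at chr16:87392336-87404774 on the plus strand. At 48 h it had 83.3 and 97.7 TPM with 5G6, 210 and 131 TPM with 6D7, and 66.4 and 69.1 TPM with 7F8, against 38.9 and 45.0 TPM with DMSO. All 6 compound libraries lay above DMSO, and both of 6D7 above those of the other compounds. The log2 change was 1.09 ± 0.27 (SE) with 5G6 (limma, adjusted p = 0.0481), 1.96 ± 0.27 with 6D7 (limma, adjusted p = 0.00230) and 0.68 ± 0.27 with 7F8, which was not called (limma, adjusted p = 0.135). After median-of-ratios scaling it was 1.18, 1.63 and 0.94 with 5G6, 6D7 and 7F8, with the same calls. The call with 6D7 was kept in all 4 left-out fits, whereas with 5G6 it was lost in all 4 (limma, adjusted p of 0.130 to 0.301).

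GABARAP, an ATG8 protein also named for its binding to GABA receptors, is the shortest of the loci, at chr17:7240008-7242449 on the minus strand. It was the most abundant ATG8 gene, with 322 and 283 TPM with 5G6, 450 and 405 TPM with 6D7, and 337 and 312 TPM with 7F8, against 199 and 220 TPM with DMSO at 48 h. Compound and DMSO libraries did not overlap. The log2 change was 1.02 ± 0.15 (SE) with 6D7 (limma, adjusted p = 0.00334) and 0.63 ± 0.15 with 7F8 (limma, adjusted p = 0.0278), and 0.53 ± 0.15 with 5G6 was not called (limma, adjusted p = 0.0867). With 6D7 the change was 0.69 and no longer called after median-of-ratios scaling (limma, adjusted p = 0.0685, the highest of 14 alternatives, the lowest being 0.00118). With 7F8 it was lost without any 1 of the 4 libraries (limma, adjusted p of 0.0685 to 0.208).

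GABARAPL1, an ATG8 protein whose gene responds to FOXO factors and to starvation, lies at chr12:10212836-10223128 on the plus strand. At 48 h it had 72.8 and 85.9 TPM with 5G6, 102 and 106 TPM with 6D7, and 150 and 98.8 TPM with 7F8, against 32.9 and 57.2 TPM with DMSO. The compound libraries lay above DMSO throughout, and the highest was 7F8 replicate 1. The log2 change was 1.47 ± 0.27 (SE) with 7F8 (limma, adjusted p = 0.0115), 1.24 ± 0.27 with 6D7 (limma, adjusted p = 0.0155) and 0.85 ± 0.27 with 5G6, which was not called (limma, adjusted p = 0.118). After median-of-ratios scaling it was 1.72 with 7F8 and 0.91 with 6D7, and the call with 6D7 was lost (limma, adjusted p = 0.0556, with 0.00684 to 0.158 over 14 alternatives). Both calls on TPM were also lost without DMSO replicate 1, and without replicate 1 of the compound (limma, adjusted p of up to 0.135 with 7F8 and 0.158 with 6D7).

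GABARAPL2 (GATE-16), at chr16:75566379-75577881 on the plus strand, moved least among the ATG8 genes. It had 104 and 129 TPM with 5G6, 133 and 143 TPM with 6D7, and 109 and 116 TPM with 7F8, against 78.3 and 94.6 TPM with DMSO at 48 h. All 6 compound libraries were above both of DMSO, although the lowest, 5G6 replicate 1, was closer to the higher DMSO library than to the other library of 5G6. With 6D7 its log2 change was 0.68 ± 0.20 (SE; limma, adjusted p = 0.0473), and this call was lost after median-of-ratios scaling, where the change was 0.34, and without any 1 of the 4 libraries (limma, adjusted p of 0.0755 to 0.285). The changes with 5G6 and 7F8, 0.43 and 0.38, were not called (limma, adjusted p = 0.286 and 0.265).

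WIPI1, which binds PI3P at the forming autophagosome, had the largest log2 change of the 10 genes with 5G6 and 6D7. It lies at chr17:68421281-68457524 on the minus strand. At 48 h it had 35.4 and 51.8 TPM with 5G6, 89.7 and 58.2 TPM with 6D7, and 32.2 and 35.9 TPM with 7F8, against 9.26 and 17.6 TPM with DMSO. No compound library overlapped with DMSO, although WIPI1 was the least abundant of the 10 genes. Its level was 3.17-fold higher with 5G6, 5.30-fold with 6D7 and 2.53-fold with 7F8. The log2 change was 1.67 ± 0.36 (SE) with 5G6 (limma, adjusted p = 0.0310), 2.41 ± 0.36 with 6D7 (limma, adjusted p = 0.00341) and 1.34 ± 0.36 with 7F8 (limma, adjusted p = 0.0416). It was 1.76, 2.07 and 1.59 with 5G6, 6D7 and 7F8 after median-of-ratios scaling. Leaving out 1 library kept the call each time with 6D7, once of 4 with 5G6 (without DMSO replicate 2) and never with 7F8 (limma, adjusted p of 0.0511 to 0.255 with 7F8 and up to 0.281 with 5G6).

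The WIPI1 locus lies wholly within the span of PRKAR1A on the opposite strand, over 36244 bases, and PRKAR1A had 107 to 288 TPM. ARSG on the opposite strand overlapped with 30725 bases of it. Whether the counting used strand is not stated. Without it, reads from stretches that lie in exons of both genes cannot be told apart. These overlaps are of whole loci, and whether the exons overlap was not examined. The ratio of FPKM to mean coverage was also taken, relative to the most common such ratio in the same library. Among the members it varied most among libraries for WIPI1, between 1.55 and 2.35. On coverage scaled by the median of ratios, the log2 change of WIPI1 at 48 h was 1.70 with 5G6, 2.03 with 6D7 and 1.51 with 7F8, each called. SQSTM1 overlapped with MGAT4B on the opposite strand by 590 bases and with MRNIP by 813. MAP1LC3B2, a near-copy of MAP1LC3B, had at most 2.33 TPM, and GABARAPL3, a near-copy of GABARAPL1, was listed at 0 in every library.

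ULK1, the kinase that starts autophagy, is activated by AMPK and held back by mTORC1. It lies at chr12:131894622-131923150 on the plus strand. At 48 h it had 52.2 and 53.4 TPM with 5G6, 86.3 and 65.3 TPM with 6D7, and 38.6 and 48.8 TPM with 7F8, against 25.1 and 40.2 TPM with DMSO. Only 7F8 overlapped with DMSO. The log2 change was 1.22 ± 0.23 (SE) with 6D7 (limma, adjusted p = 0.00913). It was 0.88 and still called after median-of-ratios scaling, but was not called on TPM without DMSO replicate 1 or 6D7 replicate 1 (limma, highest adjusted p = 0.108). Without TRNC and TRNY the change with 6D7 was 0.82 and was not called (limma, adjusted p = 0.0645). With 5G6 and 7F8 the log2 change on TPM was 0.72 and 0.44 (limma, adjusted p = 0.122 and 0.269). Its paralogue ULK2 had 8.09 to 17.6 TPM over the 16 libraries and was not called at 48 h.

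**Figure D2:**
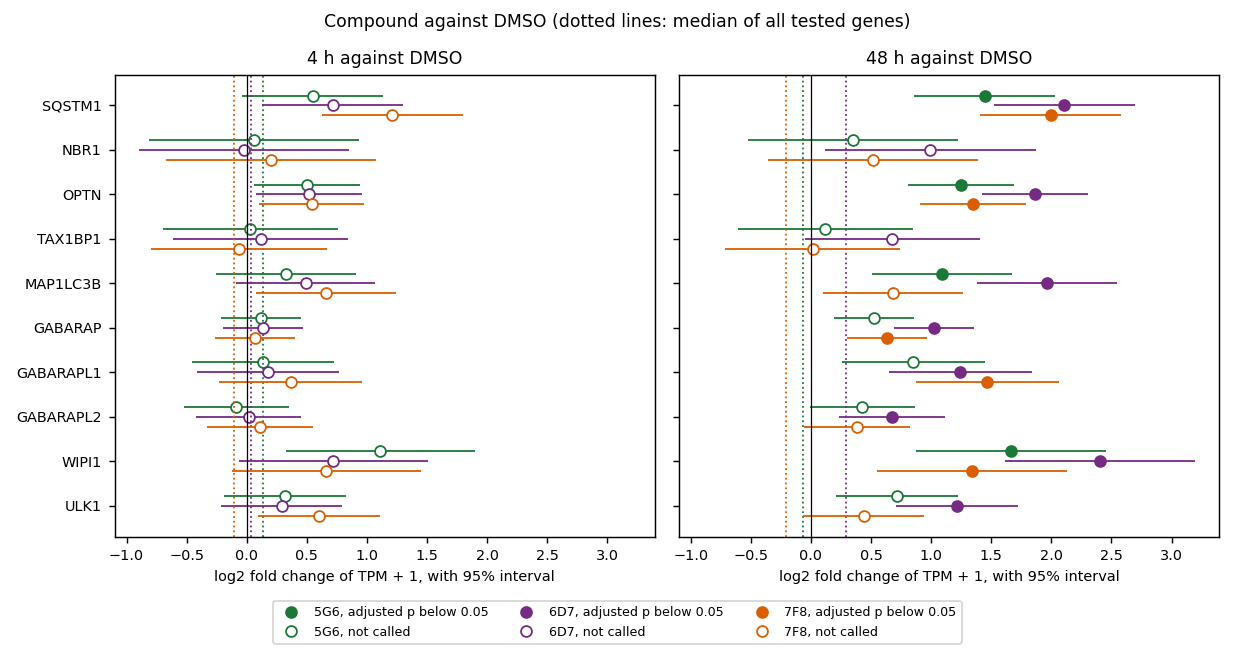
Log2 fold change of each of the 10 genes (rows) against DMSO of the same hour, at 4 h on the left and 48 h on the right, with 95% intervals; filled points had an adjusted p below 0.05 and dotted lines are medians of all tested genes. All filled points are at 48 h: 4 with 5G6, 8 with 6D7 and 5 with 7F8.

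As a group, the 10 genes had a median log2 change at 48 h of 0.78 with 5G6, 1.23 with 6D7 and 0.66 with 7F8, beside -0.07, 0.29 and -0.21 over all tested genes. After median-of-ratios scaling the medians were close to each other, at 0.87, 0.90 and 0.91 with 5G6, 6D7 and 7F8. Both libraries of the compound lay above both of DMSO in 8 of 10 genes with 5G6, in 10 with 6D7 and in 7 with 7F8, as in 19.4%, 45.2% and 15.1% of all tested genes. All 10 changes at 48 h were positive with each compound on both scales.

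**Figure D3:**
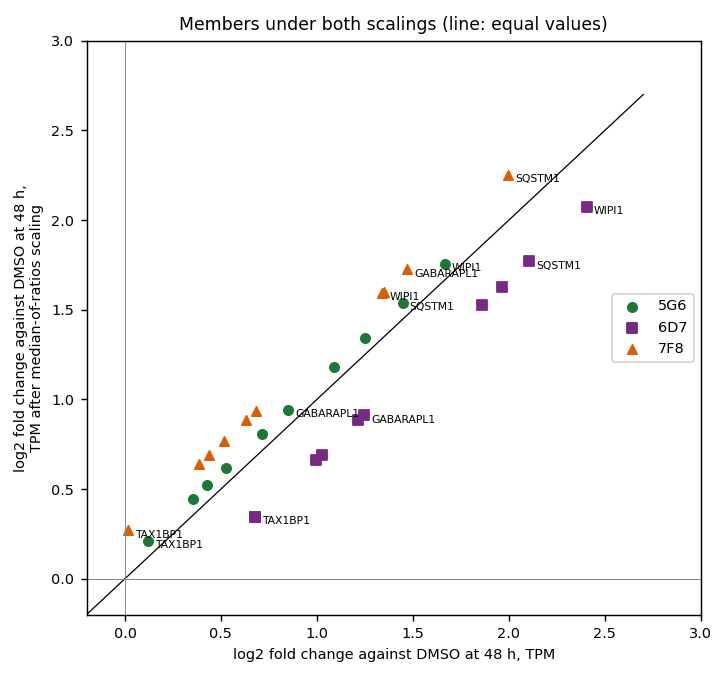
Log2 fold change of the 10 genes against DMSO at 48 h on TPM (horizontal) and after median-of-ratios scaling (vertical), 1 point per gene and compound, with the line of equal values. The 6D7 points lie below the line and those of 5G6 and 7F8 above it, so that the largest SQSTM1 change is 2.11 with 6D7 on TPM and 2.25 with 7F8 after scaling.

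The libraries of 48 h also differed in markers of the line. With 5G6 and 6D7 the lowest adjusted p of the 7 epithelial markers was 0.0780 and 0.205, for EPCAM in both (limma). With 7F8, 3 of 7 epithelial markers were called lower than with DMSO at 48 h: KRT18 (means of 613 against 1417 TPM), EPCAM (0.401 against 5.44 TPM) and AKR1B10 (1017 against 3818 TPM). The log2 changes were -1.24, -2.21 and -1.91 (limma, adjusted p = 0.0444, 0.0129 and 0.0140), and KRT18 was not called after median-of-ratios scaling. On TPM, 979 of all 15285 tested genes were called lower with 7F8 at 48 h. The 7 markers summed to 8547 and 10023 TPM in the libraries of 5G6, 6264 and 13433 TPM in those of 6D7, and 5207 and 5767 TPM in those of 7F8, against 10489 and 11452 TPM in those of DMSO, each pair given from low to high. The sums with 5G6 and 7F8 were thus below both of DMSO, and those of 6D7 lay on either side of DMSO. The 11 markers of other cell types summed to at least 9.95 TPM and less than both of DMSO with 5G6, 16.8 to 17.8 TPM with 6D7 and 14.2 to 18.4 TPM with 7F8, against 16.9 to 20.2 TPM with DMSO. The part of these differences in the results at 48 h was not tested.

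At 4 h no gene of the 10 was called with any compound. Few genes were called in all: 0.0196% of those tested with 5G6, and 0 with 6D7 and 7F8. An unadjusted p below 0.05 was reached by 2, 2 and 4 of the 10 with 5G6, 6D7 and 7F8, beside 3.91%, 1.18% and 4.86% of all tested genes. OPTN was among them with each compound. Both libraries of the compound were above both of DMSO in 5, 7 and 6 of the 10 genes with 5G6, 6D7 and 7F8, beside 26.9%, 16.1% and 9.98% of all tested genes.

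SQSTM1 had 891 and 1170 TPM with 5G6, 1001 and 1315 TPM with 6D7, and 1358 and 1923 TPM with 7F8 at 4 h, against 556 and 877 TPM with DMSO. The DMSO libraries were further apart than at 48 h, and all compound libraries were still above both. The log2 change with 7F8 was 1.21 ± 0.27 (SE) with an unadjusted p of 0.000740 in limma, and an adjusted p of 0.539. OPTN had 47.2 and 46.9 TPM with 5G6, 48.7 and 46.6 TPM with 6D7, and 42.5 and 55.0 TPM with 7F8, against 32.5 and 33.5 TPM with DMSO. Its log2 changes were 0.50, 0.52 and 0.54 with 5G6, 6D7 and 7F8 on TPM (limma, adjusted p = 1, 1 and 0.918), and 0.34, 0.46 and 0.64 after median-of-ratios scaling.

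WIPI1 at 4 h had 35.6 and 21.9 TPM with 5G6, 24.2 and 18.3 TPM with 6D7, and 25.9 and 15.7 TPM with 7F8, against 13.8 and 11.1 TPM with DMSO. The compound libraries did not overlap with DMSO, but replicates of each compound were further apart than those of DMSO. With 5G6 the log2 change was 1.11 ± 0.36 (SE; limma, adjusted p = 0.961). After median-of-ratios scaling the changes of WIPI1 were 0.95, 0.67 and 0.77 with 5G6, 6D7 and 7F8. On coverage scaled in the same way they were 0.67, 0.57 and 0.55. ULK1 had 34.4 and 40.9 TPM with 5G6, 38.9 and 34.8 TPM with 6D7, and 46.3 and 45.2 TPM with 7F8, against 31.7 and 28.2 TPM with DMSO, again with no overlap.

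MAP1LC3B at 4 h had 57.4 and 64.5 TPM with 5G6, 61.4 and 75.6 TPM with 6D7, and 58.8 and 100 TPM with 7F8, against 46.4 and 50.2 TPM with DMSO. All 6 compound libraries were above DMSO here also. The other ATG8 genes, NBR1 and TAX1BP1 were closer to DMSO: their 15 log2 changes lay between -0.09 and 0.37. After median-of-ratios scaling the median change of the 10 genes at 4 h was 0.06 with 5G6, 0.18 with 6D7 and 0.56 with 7F8.

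The change of each effect between the times was tested on its own, as the effect at 48 h minus that at 4 h. No gene of the 10 passed the adjusted threshold in any of the 3 comparisons, in which 0, 0.0393% and 0.00654% of all tested genes did with 5G6, 6D7 and 7F8. At an unadjusted p below 0.05 there were 2, 8 and 3 of the 10 genes, beside 7.52%, 10.9% and 8.4% of all tested genes. The largest difference of this kind was that of WIPI1 with 6D7, 1.69 on the log2 scale with a 95% interval of 0.57 to 2.80 (limma, adjusted p = 0.313). For MAP1LC3B with 7F8 it was 0.02, with an interval of -0.80 to 0.85. DMSO at 48 h against DMSO at 4 h gave no call either and 0 of 10 genes at an unadjusted p below 0.05, where 1.64% of all tested genes had one. SQSTM1 was lower by the point estimate there, with a log2 change of -0.52 and an interval of -1.11 to 0.06.

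The compounds were compared with each other at the same hour, 3 pairs at each time, on the 10 genes. At 4 h no gene of the 10 was called, with 0, 1 and 0 of them at an unadjusted p below 0.05 for 5G6 against 6D7, 5G6 against 7F8 and 6D7 against 7F8 (1.16%, 11.7% and 6.12% of all tested genes). The shares of all tested genes called were 0, 0.0131% and 0. At 48 h no gene was called for 5G6 against 6D7, where 0.0196% of all tested genes were, or for 5G6 against 7F8, where 0.34% were. At an unadjusted p below 0.05 there were 4 and 1 genes of the 10, beside 19.3% and 9.07% of all tested genes.

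For 6D7 against 7F8 at 48 h, MAP1LC3B and ULK1 were called higher on TPM, where 16.3% of all tested genes were and the median of all was 0.50 on the log2 scale. At an unadjusted p below 0.05 there were 5 of the 10, beside 37% of all tested genes. MAP1LC3B averaged 171 ± 56.3 TPM with 6D7 and 67.7 ± 1.96 TPM with 7F8 (SD, n = 2 each), a log2 difference of 1.28 with a 95% interval of 0.70 to 1.86 (limma, adjusted p = 0.0152). ULK1 averaged 75.8 ± 14.9 TPM with 6D7 and 43.7 ± 7.23 TPM with 7F8, a difference of 0.78 with an interval of 0.27 to 1.28 (limma, adjusted p = 0.0422). After median-of-ratios scaling the differences were 0.69 and 0.19, neither was called, and 0.334% of all tested genes were called higher. SQSTM1 differed between 6D7 and 7F8 by 0.11 on TPM, with an interval of -0.47 to 0.70, and between 5G6 and 7F8 by -0.55, with an interval of -1.13 to 0.04. For GABARAPL1, 5G6 against 7F8 gave -0.62 with an interval of -1.21 to -0.02 (limma, adjusted p = 0.525), and 6D7 against 7F8 gave -0.22 with an interval of -0.82 to 0.37. Under median-of-ratios scaling the difference of 6D7 from 7F8 in GABARAPL1 was -0.81 and that of MAP1LC3B had the opposite sign, 0.69.

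The make-up of each family does not depend on the scaling of a library. The 4 receptors together averaged 1530 ± 162 TPM with 5G6, 2418 ± 455 TPM with 6D7 and 2145 ± 222 TPM with 7F8 at 48 h, against 621 ± 32.4 TPM with DMSO (SD, n = 2 each). SQSTM1 made up 89.7% and 84.1% of that sum with 5G6, 89.0% and 85.9% with 6D7, and 90.7% and 90.5% with 7F8, against 81.9% and 74.8% with DMSO. Its share was thus above DMSO in all 6 compound libraries. TAX1BP1 took 2.77% to 5.69% of the sum with a compound and 8.24% to 11.2% with DMSO.

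The 4 ATG8 genes together averaged 589 ± 9.76 TPM with 5G6, 840 ± 78.4 TPM with 6D7 and 629 ± 47.4 TPM with 7F8 at 48 h, against 383 ± 47.3 TPM with DMSO. GABARAP gave 47.1% to 58.4% of them over the 16 libraries. MAP1LC3B gave 14.3% to 16.4% with 5G6, 16.7% to 23.5% with 6D7 and at most 11.6% with 7F8, against 10.8% to 11.1% with DMSO. GABARAPL1 gave 12.5% to 14.4% with 5G6, 11.4% to 13.5% with 6D7 and 16.6% to 22.7% with 7F8, against 9.42% to 13.7% with DMSO. With 7F8 the share of GABARAPL1 was thus above that of every other group at 48 h while that of MAP1LC3B overlapped with DMSO, and with 6D7 the share of MAP1LC3B was the highest. GABARAPL2 gave 14.9% to 21.7% with a compound and 22.4% to 22.7% with DMSO.

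**Figure D4:**
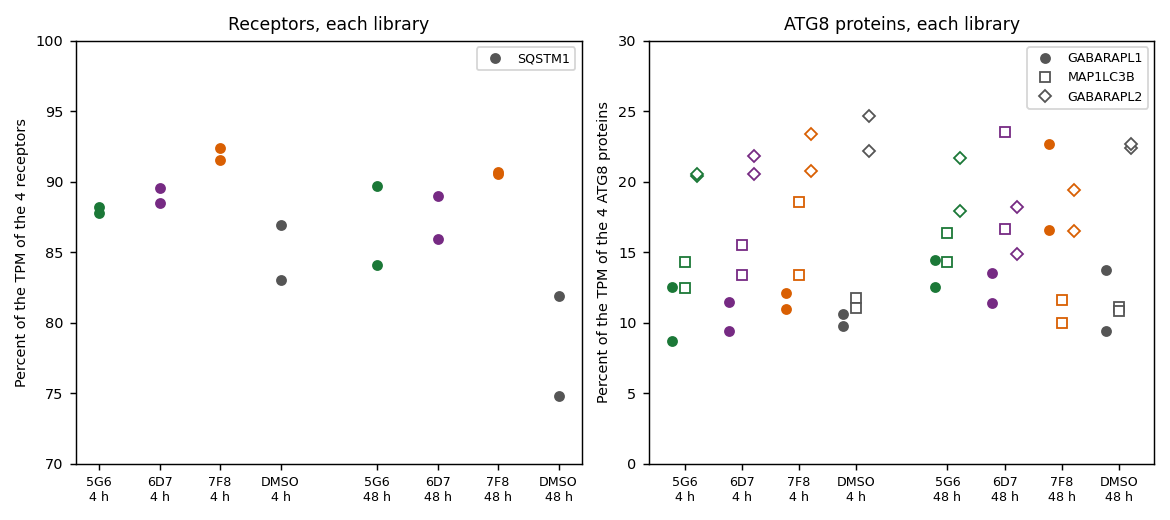
Left, SQSTM1 as a percentage of the TPM of the 4 receptors (axis from 70 to 100); right, GABARAPL1, MAP1LC3B and GABARAPL2 as percentages of the TPM of the 4 ATG8 genes, in each of the 16 libraries; GABARAP, not drawn, makes up the rest. At 48 h GABARAPL1 is highest with 7F8 at 16.6% to 22.7%, and MAP1LC3B with 6D7 at 16.7% to 23.5%.

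Over the 8 groups, the order of the means differed among the genes. SQSTM1 ran from 6D7 at 48 h over 7F8 at 48 h, 7F8 at 4 h, 5G6 at 48 h, 6D7 at 4 h and 5G6 at 4 h to DMSO at 4 h and DMSO at 48 h. In this order the libraries of neighbours overlapped, except between 5G6 and DMSO at 4 h and between DMSO at 4 h and at 48 h. OPTN had 6D7, 7F8 and 5G6 at 48 h on top, each apart from the next, then the 3 compounds at 4 h, which overlapped among themselves, and both DMSO groups last, which overlapped with each other. Across the 16 libraries on the median-of-ratios scale, Pearson's r between pairs of the 10 genes was 0.21 to 0.92 with a median of 0.72 over 45 pairs, the highest being that of OPTN with GABARAP and the lowest that of TAX1BP1 with WIPI1. These libraries share their treatment groups, so the r values are a description.

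Other genes of autophagy were read from 7 lists of 69 genes, of which 67 were tested: other receptors, other ATG8 genes, the initiation complex with ATG9 vesicles, the class III PI3-kinase complex, other PI3P effectors, the ATG8 conjugation enzymes and the fusion machinery. At 48 h, 2 of the 67 were called higher and 1 lower with 5G6, 24 higher and 0 lower with 6D7, and 2 higher and 1 lower with 7F8. Of all tested genes, 1.87%, 10.9% and 2.08% were called higher with 5G6, 6D7 and 7F8. Called lower were 231, 233 and 979 of the 15285. After median-of-ratios scaling, 6, 9 and 6 of the 67 were called higher and 0 lower with 5G6, 6D7 and 7F8. Of all tested genes, 2.47%, 3.09% and 3.69% were called higher after that scaling. On that scale the median log2 changes of the 67 were 0.20, 0.30 and 0.27, beside 0.87, 0.90 and 0.91 of the 10 genes described here. Both sets were chosen with earlier results of these data known, so the difference between them is a description only. At 4 h limma called none of the 67 with any compound, and 8, 4 and 5 had an unadjusted p below 0.05 with 5G6, 6D7 and 7F8. Of all tested genes, 3.91%, 1.18% and 4.86% had one.

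Calls among the other receptors were all at 48 h. BNIP3, which binds ATG8 proteins on mitochondria, rose with 5G6, with 167 and 278 TPM against 50.7 and 89.2 TPM with DMSO. Its log2 change was 1.67 (limma, adjusted p = 0.0408). PHB2, a receptor of the inner mitochondrial membrane, fell with 5G6 to 161 ± 11.8 TPM, against 258 ± 8.33 TPM with DMSO (limma, adjusted p = 0.0351), a call that was lost after median-of-ratios scaling. NCOA4, the receptor of ferritin, rose with 7F8, with 163 and 126 TPM against 54.6 and 69.4 TPM with DMSO, a log2 change of 1.21 (limma, adjusted p = 0.00967). CALCOCO1, a receptor of the endoplasmic reticulum and Golgi, rose with 7F8 by a log2 change of 1.23 (limma, adjusted p = 0.0479). TOLLIP, an adaptor that binds ubiquitin, rose with 6D7 on TPM by 0.95 (limma, adjusted p = 0.00460) and was not called after median-of-ratios scaling. CALCOCO2, the receptor NDP52, had 22.6 to 47.6 TPM over all libraries and was called with 6D7 on TPM only.

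Calls in the machinery were likewise at 48 h. PLEKHM1, an adaptor for fusion with the lysosome, rose with 6D7, with 47.0 and 30.2 TPM against 7.79 and 11.5 TPM with DMSO. Its log2 change was 1.88 (limma, adjusted p = 0.00280). ATG13, a partner of ULK1, rose with 6D7 by 1.29 (limma, adjusted p = 0.00459), and both calls were kept after median-of-ratios scaling. ZFYVE1, a PI3P-binding protein of forming autophagosomes, rose with 5G6 by 1.23 (limma, adjusted p = 0.0493). ATG16L1, of the complex that couples ATG8 to lipid, fell with 7F8 to 20.6 TPM, against 35.4 TPM with DMSO (limma, adjusted p = 0.0332), and this was not called after median-of-ratios scaling.

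Of 18 regulators, 4 were called higher and 0 lower with 6D7 at 48 h on TPM, where 10.9% of all tested genes were called higher. With 5G6 and 7F8 at 48 h 0 were called. The largest log2 change among the 18 with 6D7 was 2.455. ATF4, a stress-induced transcription factor, was 1 of the 4, with 880 and 582 TPM against 287 and 259 TPM with DMSO. Its log2 change was 1.39 (limma, adjusted p = 0.00481). FLCN, folliculin, which acts on mTORC1 and AMPK signalling, was the one regulator called at 4 h, with 46.0 and 57.2 TPM with 5G6 against 15.2 and 16.2 TPM with DMSO (limma, adjusted p = 0.0287). A fixed list held 10 target genes of NRF2, a factor that p62 releases from KEAP1. Of these, 0 were called with any compound at either time in limma, on either scale. The list left out AKR1B10 and AKR1C2, read above as markers of the line, of which AKR1B10 was called lower with 7F8 at 48 h. Whether NRF2 activity changed was not tested. On TPM an unadjusted p below 0.05 was reached by 1, 0 and 3 of the 10 listed targets at 48 h with 5G6, 6D7 and 7F8. The shares of all tested genes were 18.1%, 29.3% and 24.9%. At 4 h 0 of the 10 reached it. At 48 h the median log2 change of the 10 was -0.31, -0.16 and -0.53 with 5G6, 6D7 and 7F8 on TPM. It was -0.22, -0.49 and -0.28 after median-of-ratios scaling.

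**Figure D5:**
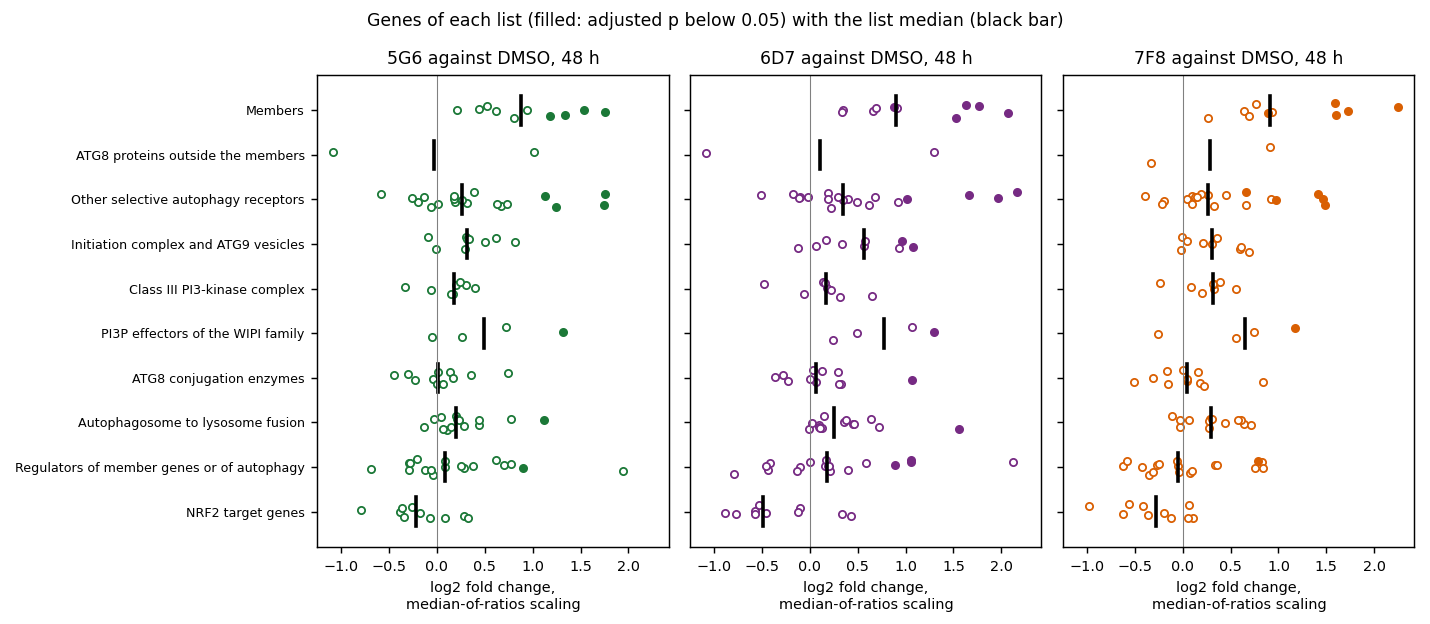
Log2 fold change against DMSO at 48 h after median-of-ratios scaling for the 10 genes described here (top row, Members) and for the genes of each list, 1 circle per gene, filled where the adjusted p was below 0.05, with black bars at the medians. The median of the 10 genes is 0.87 with 5G6, 0.90 with 6D7 and 0.91 with 7F8, and that of the NRF2 targets is -0.22, -0.49 and -0.28.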

How the data were processed

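PolyA RNA of 16 libraries was made with TRIzol, DNase I and a NEBNext Ultra kit, per the labels' protocols; strandedness was not given in the sources used here. The submitters' processing notes name STAR 2.6.1a, featureCounts 1.6.3, StringTie 2.0 and GRCh38, without their roles. The authors deposited, per library, a gene table with TPM, FPKM and coverage. The deposited TPM values have the same sum in each library, the deposited FPKM values are scaled to length and depth, and coverage is the mean read depth of a gene, per the file headers. No read counts were used, so no counting intervals are given.

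Values of entries with 1 gene name were added. A gene was tested where 2 or more libraries had 1 TPM or more. A single model for the 16 libraries, with 8 group means, a mean-variance trend and 8 residual degrees of freedom, was fitted to log2(TPM + 1) in limma (version 3.58.1, R version 4.3.3), two-sided, with Benjamini-Hochberg adjustment within each of 16 comparisons and calls at an adjusted p below 0.05. Fold changes are on the scale of TPM + 1, which understates low genes. The fit was tested on simulated data with independent noise in each library. These held neither a deviation shared by same-numbered libraries nor the shift of TRNC, so the test does not cover either. Python 3.11.15 served for reading and drawing (matplotlib 3.10.9, numpy 2.4.6, pandas 2.3.3). Median-of-ratios size factors were 0.816 to 1.37.

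The members and lists were chosen with earlier results of these data known. Named list genes were, per comparison with DMSO, up to 4 called genes with the smallest adjusted p, a mean of at least 5 TPM in the higher group and no overlap between groups. CALCOCO2, ULK2, MAP1LC3B2 and GABARAPL3 were named in addition, as relatives of the members, and the marker genes because they were called. Alternatives were another unit, pseudocount, filter, scaling, variance model, 1 time point alone, a replicate block and leaving out each library. Scaled coverage and the block with median-of-ratios scaling were chosen after seeing the data.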

Additional observations from a re-analysis of the deposited data

How the results depend on the processing

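Over 1440 values of single genes under an alternative, 1349 kept their side of the threshold, 76 lost and 15 gained a call. The sign changed in 0 called and 111 uncalled values. Most of the 1440 belong to results not called to begin with, which cannot lose a call, so all 76 losses fall on the called minority. With 6D7 at 48 h, SQSTM1, OPTN, MAP1LC3B and WIPI1 kept their calls in all 14 alternatives, and GABARAPL2 in 1 of 14. At 4 h no gene was called under any alternative that was run. At 48 h, 4 genes were called with 5G6, and the number was 2 with no filter, 0 in a fit of the 48 h libraries alone and 0 to 1 with 1 library left out. With 6D7, 8 were called, and 5 in FPKM, after median-of-ratios scaling, without TRNC and TRNY, in the 48 h libraries alone and on scaled coverage, with 5 to 8 when 1 library was left out. With 7F8, 5 were called, 2 in the 48 h libraries alone, 9 in the replicate block with median-of-ratios scaling and 0 to 3 with 1 library left out. The cause was not tested, except that a fit of 1 time point or without a library has fewer samples. The 5 genes called with 6D7 were not the same under each alternative. ULK1 was called after median-of-ratios scaling but not without TRNC and TRNY (limma, adjusted p = 0.0349 and 0.0645). For GABARAP it was the reverse (limma, adjusted p = 0.0685 and 0.0363). The replicate block alone called 5, 10 and 5 genes with 5G6, 6D7 and 7F8. Under it NBR1 and TAX1BP1 were called higher with 6D7 (limma, adjusted p = 0.00671 and 0.0152), and NBR1 also, with median-of-ratios scaling, with 6D7 and 7F8 (limma, adjusted p = 0.0323 and 0.0152). Same-numbered libraries tended to deviate together, with an r of 0.055 to 0.628 over 28 pairs of groups, above 0.1 in 25. The r was thus positive in every pair of groups. Without the block, a deviation shared by same-numbered libraries counts as spread within groups. Taking the numbers as pairs required more than 0.1 in every pair of groups. The labels also give no shared culture or day, so the values without the block were kept as the main ones.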

Other observations

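The patterns most like those of the called genes were sought over the 16 libraries among 10175 genes with a mean of at least 5 TPM, by Pearson's r on the median-of-ratios scale. The values are a description, since the libraries share their treatment groups. For SQSTM1 these were MGAT4B (r = 0.93), which overlaps with it on the opposite strand, then IRAK2 and SCAMP3 (0.92 each). OPTN was closest to RNASEK and CHPF (0.95 each) and CSTB (0.94), and GABARAP to ARPC1B and RNASEK (0.97 each) and FADS3 (0.96). GABARAPL1 was closest to LOC102723728 and OS9 (0.96 each) and ARSA (0.94), the last a lysosomal sulfatase. GABARAPL2 was closest to SPINT2 (0.96), NDFIP1 (0.94) and VAMP3 (0.93). MAP1LC3B was closest to C9orf72 and C6orf48 (0.92 each) and ATG13 (0.91), and ULK1 to BSDC1 (0.94), RAB40C (0.92) and ATG2A (0.91). WIPI1 was closest to WBP2, TBC1D17 and CLCN7 (0.94 each), the last a chloride transporter of lysosomes. RNASEK is thus in the nearest 3 of both OPTN and GABARAP, the pair of members with the highest r between them.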
